A study of Mus musculus with 12 samples.

Results

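The 8 genes described here are Id1, Id2, Id3, Id4, Smad6, Smad7, Ctgf (Ccn2 in RefSeq) and Msx1, which are textbook transcriptional targets of BMP or TGF-beta signalling. They were chosen by name, and each was read from the non-control spots whose accession maps to that symbol. All 8 were among 25878 features tested, of which 17487 had a gene symbol, and each had 1 probe with 1 spot. RNA was measured on 12 Agilent 2-colour mouse arrays, each with its own sample in Cy5 and a pool of all conditions in Cy3. The arrays cover Eng+/- and wt samples with clp, with tpa and with no named treatment, at 90 d and at 50 d, and each of these 12 combinations has 1 array. Eng+/- samples (written with the prefix end in the titles) are heterozygous for Eng, the gene of the TGF-beta and BMP co-receptor endoglin, and no other allele or agent is named. The meaning of clp, tpa and the days, how many animals or cultures gave each RNA, and how Eng was modified are not given by the sources. The titles of both wt arrays without a treatment name also contain the word pool, and these arrays counted as wt.

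The labels name the material as E14 embryonic stem cells, whereas the series title concerns the hair follicle cycle. Cy5 exceeded background on all 12 arrays for 23 of 26 genes of the hair shaft and root sheath and for 14 of 14 epidermal genes. Of 12 embryonic stem cell genes, 7 were above background on all 12 arrays, and Zfp42 was above background on none. Reciprocal labelling with wt RNA in Cy3, as the series text has it, is not what the labels and headers of these arrays show. In such bulk RNA, fewer cells of a type and less RNA per cell cannot be told apart. The median Cy5 signal of an array was 166.5 to 573 and the median Cy3 signal 99 to 140, with Cy5 well above background on 65.67 to 77.68% of spots. The spots of all 8 genes were above background on 12 of 12 arrays and none was saturated.

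BMP ligands bind type I and type II receptors, which phosphorylate Smad1, Smad5 and Smad8, and TGF-beta ligands act in the same way through Smad2 and Smad3. The phosphorylated Smads join Smad4 and bind promoters of target genes. Id1, Id2, Id3 and Id4 are such targets. They encode helix-loop-helix proteins without a DNA-binding region, which bind E proteins and keep them from DNA. Smad6 and Smad7 encode inhibitory Smads and are induced by the pathway they restrain, Smad6 mainly acting on BMP signals and Smad7 on both branches. Ctgf encodes a matricellular protein induced by TGF-beta and by YAP, and Msx1 encodes a homeobox factor induced by BMP. In the hair follicle, BMP signals hold stem cells at rest and act again in the differentiating hair shaft.

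Smads bind short motifs, of which 3 were searched on both strands: GGCGCC, a GC-rich element of BMP targets, GTCTAGAC, a palindrome that Smads bind, and CAGAC, the longer form of the Smad element. The first 2 are their own reverse complement and the third reads GTCTG on the opposite strand. No motif lies within another. Windows of 5 of the 8 genes were taken from the RefSeq promoter table (GRCm38.p6), and those of Id1, Smad7 and Ctgf were not. Each window had 260 bases, from 250 bases before to 10 after the start. Smad6 held 1 GTCTAGAC, which begins at position -4, and 0.177% of 32851 promoters hold that motif. Id2 held 1 GGCGCC at -231 and Id4 held 1 at -148, and 9.96% of promoters hold it. Id3 held 2 matches to CAGAC, which 44% of promoters hold, and Msx1 held no match to any of the 3. The windows of Smad6 and Msx1 are shown because both genes passed a test below, and those of Id4 and Id2 because they hold the GC-rich element. Capitals mark the motif letters, each sequence reads 5′ to 3′ along its gene, and a match is a description of the letters only.
Smad6 promoter window, chr9:64022050-64022309, minus strand: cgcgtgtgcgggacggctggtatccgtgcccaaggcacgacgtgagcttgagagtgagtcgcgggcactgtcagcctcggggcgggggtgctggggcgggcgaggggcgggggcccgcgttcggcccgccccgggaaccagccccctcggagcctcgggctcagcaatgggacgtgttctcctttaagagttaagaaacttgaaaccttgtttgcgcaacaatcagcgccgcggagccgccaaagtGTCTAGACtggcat
Msx1 promoter window, chr5:37824576-37824835, minus strand: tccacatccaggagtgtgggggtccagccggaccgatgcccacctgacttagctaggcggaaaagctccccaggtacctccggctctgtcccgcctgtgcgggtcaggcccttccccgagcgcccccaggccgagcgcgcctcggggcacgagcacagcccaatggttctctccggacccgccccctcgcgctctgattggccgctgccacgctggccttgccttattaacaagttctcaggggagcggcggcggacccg
Id4 promoter window, chr13:48260866-48261125, plus strand: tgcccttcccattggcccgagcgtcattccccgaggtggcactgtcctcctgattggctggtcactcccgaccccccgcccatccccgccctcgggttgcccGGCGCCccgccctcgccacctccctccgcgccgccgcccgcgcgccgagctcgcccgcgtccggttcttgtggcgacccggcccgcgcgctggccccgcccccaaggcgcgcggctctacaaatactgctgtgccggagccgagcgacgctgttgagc
Id2 promoter window, chr12:25096083-25096342, minus strand: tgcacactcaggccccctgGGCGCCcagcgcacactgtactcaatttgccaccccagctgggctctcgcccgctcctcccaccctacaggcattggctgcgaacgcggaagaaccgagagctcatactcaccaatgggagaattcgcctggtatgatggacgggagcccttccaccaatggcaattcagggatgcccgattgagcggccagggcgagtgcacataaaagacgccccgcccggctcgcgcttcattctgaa

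All values below are log2 ratios of a sample to the common pool (Cy5 over Cy3 after background correction and loess), so a value compares arrays within 1 gene and does not compare levels between genes. The pool signal should be steady between arrays, and for Id3 it was not. The Cy3 signal of Id3 was 1470 on Eng+/- clp 90 d, 7015 on wt clp 90 d, 4100 on Eng+/- clp 50 d and 977 on wt clp 50 d. With tpa it was 2187, 2786.5, 2077 and 641 (Eng+/- 90 d, wt 90 d, Eng+/- 50 d, wt 50 d), and with no named treatment it was 583, 835.5, 618 and 461 in the same order. The SD of the background-subtracted, median-centred Cy3 signal of Id3 over the arrays was 1.15 on the log2 scale. It was larger than that of 99.52% of 26071 spots, whose median was 0.15. The other 7 genes had SDs of 0.09 (Id2) to 0.26 (Msx1). For this reason the Id3 differences fitted over all arrays are given below with the value from Cy5 alone, quantile normalized between arrays. Of the 96 spots of the 8 genes, 3 carried an outlier flag and were set missing: Id3 on both Eng+/- clp arrays and Id2 on Eng+/- tpa 90 d. The Cy5 signal of Id3 itself carried the flag on Eng+/- clp 90 d alone.

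**Figure D1:**
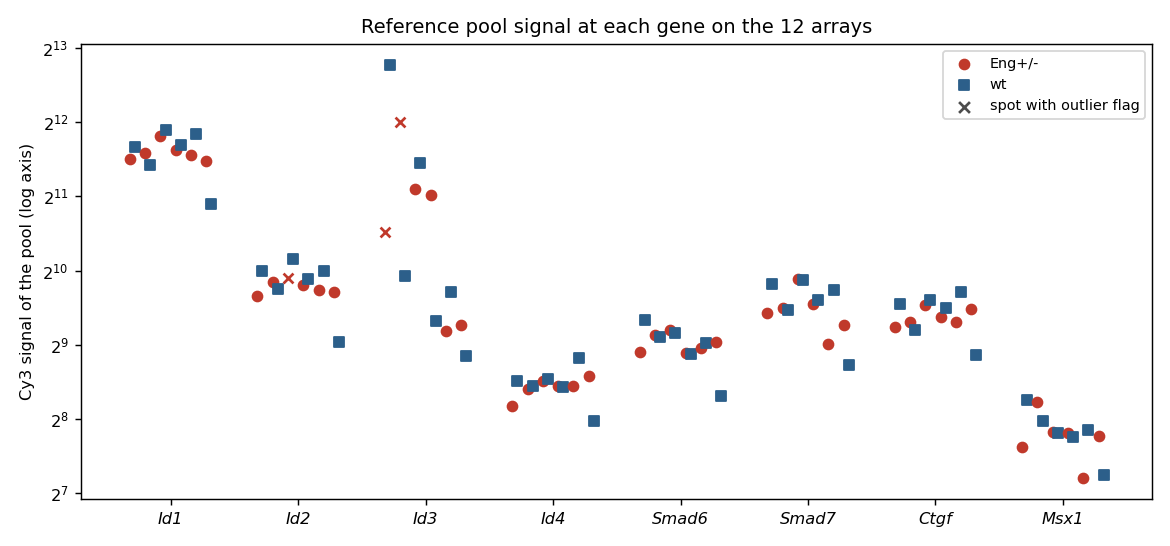
Cy3 signal of the reference pool (log axis, scanner units) at the 8 genes on the 12 arrays. Within each gene the arrays run from clp through tpa to no named treatment, at 90 d and then 50 d. Circles are Eng+/-, squares are wt, and crosses are spots with an outlier flag. Id3 runs from 461 to 7015, while each other gene stays within a range of 1.80-fold to 2.23-fold.

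Eng, the targeted gene, was read first as a check of the labels. With clp its log2 ratio was -0.78 in Eng+/- and 0.82 in wt at 90 d, and 0.93 in Eng+/- and 1.92 in wt at 50 d. With tpa it was -0.38 in Eng+/- and 0.79 in wt at 90 d, and -0.49 in Eng+/- and -1.13 in wt at 50 d. With no named treatment it was -0.86 in Eng+/- and -0.58 in wt at 90 d, and -1.43 in Eng+/- and -0.24 in wt at 50 d. In 5 of 6 pairs the array labelled Eng+/- had the lower Eng value, with the tpa 50 d pair the other way, and the fitted difference of -0.77 ± 0.26 (SE) did not pass (limma, adjusted p = 0.33). The sources do not say whether the probe lies in the modified part of Eng.

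Among the Id genes, Id1 with clp had log2 ratios of 0.78 in Eng+/- and 1.31 in wt at 90 d, and of 1.06 in Eng+/- and 1.32 in wt at 50 d. With tpa Id1 had 0.12 in Eng+/- and 0.48 in wt at 90 d, and -0.43 in Eng+/- and -0.20 in wt at 50 d. Without a named treatment Id1 had -0.58 in Eng+/- and 1.23 in wt at 90 d, and 1.33 in Eng+/- and 0.91 in wt at 50 d. All 4 clp arrays thus lay above all 4 tpa arrays, and Eng+/- with no named treatment at 90 d was the lowest of the 12. None of the 11 gaps between neighbours in the order of the 12 Id1 values exceeded the gene's moderated residual SD of 0.43. This SD, here and for the genes below, is that of 1 array. A difference between 2 arrays varies more, so a gap beyond the SD can still lie within the spread and is no test. Id4 with clp had 1.29 in Eng+/- and 2.02 in wt at 90 d, and 2.21 in Eng+/- and 1.89 in wt at 50 d. With tpa Id4 had 1.26 in Eng+/- and 1.38 in wt at 90 d, and 0.76 in Eng+/- and 0.80 in wt at 50 d. On the remaining arrays, with no named treatment, Id4 had 0.80 in Eng+/- and 1.73 in wt at 90 d, and 1.65 in Eng+/- and 1.49 in wt at 50 d. Id4 was lowest on the same 3 arrays as Id1, and the gap of 0.46 above these 3 was the single gap of 11 beyond its SD of 0.31.

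The values of Id2 did not have their low end on these 3 arrays. With clp Id2 had 0.38 in Eng+/- and 0.87 in wt at 90 d, and 0.58 in Eng+/- and 1.14 in wt at 50 d. With tpa Id2 was missing in Eng+/- and had 0.97 in wt at 90 d, and had 0.65 in Eng+/- and 0.80 in wt at 50 d. On the arrays with no named treatment Id2 had 0.63 in Eng+/- and 0.01 in wt at 90 d, and -0.18 in Eng+/- and 0.13 in wt at 50 d. The 3 lowest of its 11 values were arrays with no named treatment, and none of its 10 gaps exceeded its SD of 0.30. The Id3 ratio with clp was -1.98 in wt at 90 d and 0.06 in wt at 50 d, both Eng+/- values being missing. With tpa it was -1.75 in Eng+/- and -1.56 in wt at 90 d, and -1.88 in Eng+/- and -0.49 in wt at 50 d. With no named treatment it was -0.32 in Eng+/- and -0.12 in wt at 90 d, and 0.36 in Eng+/- and 0.13 in wt at 50 d. The 4 lowest Id3 ratios fell on the arrays with the 4 highest Cy3 signals among the 10 with a ratio. Its single gap beyond the SD of 0.38, of 1.07, lay just above them. The normalized Cy5 signal of Id3 alone was 12.73 (log2) in wt clp 90 d, 13.33 in Eng+/- clp 50 d and 12.55 in wt clp 50 d. It was 11.64, 12.19, 11.69 and 11.30 with tpa (Eng+/- 90 d, wt 90 d, Eng+/- 50 d, wt 50 d) and 11.55, 12.04, 12.25 and 12.17 with no named treatment, in that order. On that scale the 3 clp arrays, among them the lowest by ratio, lay above all 8 others.

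Of the inhibitory Smads, Smad7 with clp had -0.49 in Eng+/- and 1.09 in wt at 90 d, and 0.69 in Eng+/- and 1.15 in wt at 50 d. With tpa Smad7 had -0.24 in Eng+/- and 0.12 in wt at 90 d, and -1.16 in Eng+/- and -1.21 in wt at 50 d. Without a named treatment Smad7 had -0.79 in Eng+/- and -0.46 in wt at 90 d, and -0.97 in Eng+/- and -0.70 in wt at 50 d. The 3 highest values were clp arrays, and Eng+/- clp 90 d lay apart from them within the range of the arrays with no named treatment. The gaps below Eng+/- clp 50 d (0.57), wt clp 90 d (0.40) and wt tpa 90 d (0.36) exceeded the SD of 0.34, and the other 8 did not. Smad6 with clp had -1.09 in Eng+/- and 0.19 in wt at 90 d, and 0.11 in Eng+/- and 0.40 in wt at 50 d. With tpa Smad6 had -0.91 in Eng+/- and -0.41 in wt at 90 d, and -1.37 in Eng+/- and -1.59 in wt at 50 d. On the remaining arrays, with no named treatment, Smad6 had -1.27 in Eng+/- and -0.27 in wt at 90 d, and -0.58 in Eng+/- and -0.54 in wt at 50 d. The same 3 clp arrays were the highest for Smad6 as for Smad7, and the gap of 0.37 below them was the single one of 11 beyond its SD of 0.34.

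Msx1 with clp had -0.62 in Eng+/- and -0.19 in wt at 90 d, and -0.33 in Eng+/- and 0.01 in wt at 50 d. With tpa Msx1 had -0.54 in Eng+/- and -0.46 in wt at 90 d, and -1.11 in Eng+/- and -1.09 in wt at 50 d. On the arrays with no named treatment Msx1 had -0.69 in Eng+/- and -0.42 in wt at 90 d, and -0.52 in Eng+/- and -0.21 in wt at 50 d. Both tpa 50 d arrays lay below the rest by a gap of 0.40, beyond the SD of 0.17, and wt clp 50 d lay above the rest by 0.20. Ctgf ranged least of the 8 genes in log2 ratio, by 0.99 over the 12 arrays, against 1.12 (Msx1) to 2.36 (Smad7). With clp Ctgf had 2.30 in Eng+/- and 1.87 in wt at 90 d, and 2.21 in Eng+/- and 1.78 in wt at 50 d. With tpa Ctgf had 1.38 in Eng+/- and 1.76 in wt at 90 d, and 1.52 in Eng+/- and 2.06 in wt at 50 d. Without a named treatment Ctgf had 1.90 in Eng+/- and 1.57 in wt at 90 d, and 1.31 in Eng+/- and 1.67 in wt at 50 d. Both Eng+/- clp arrays had the highest Ctgf ratios, and none of its 11 gaps exceeded its SD of 0.30.

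**Figure D2:**
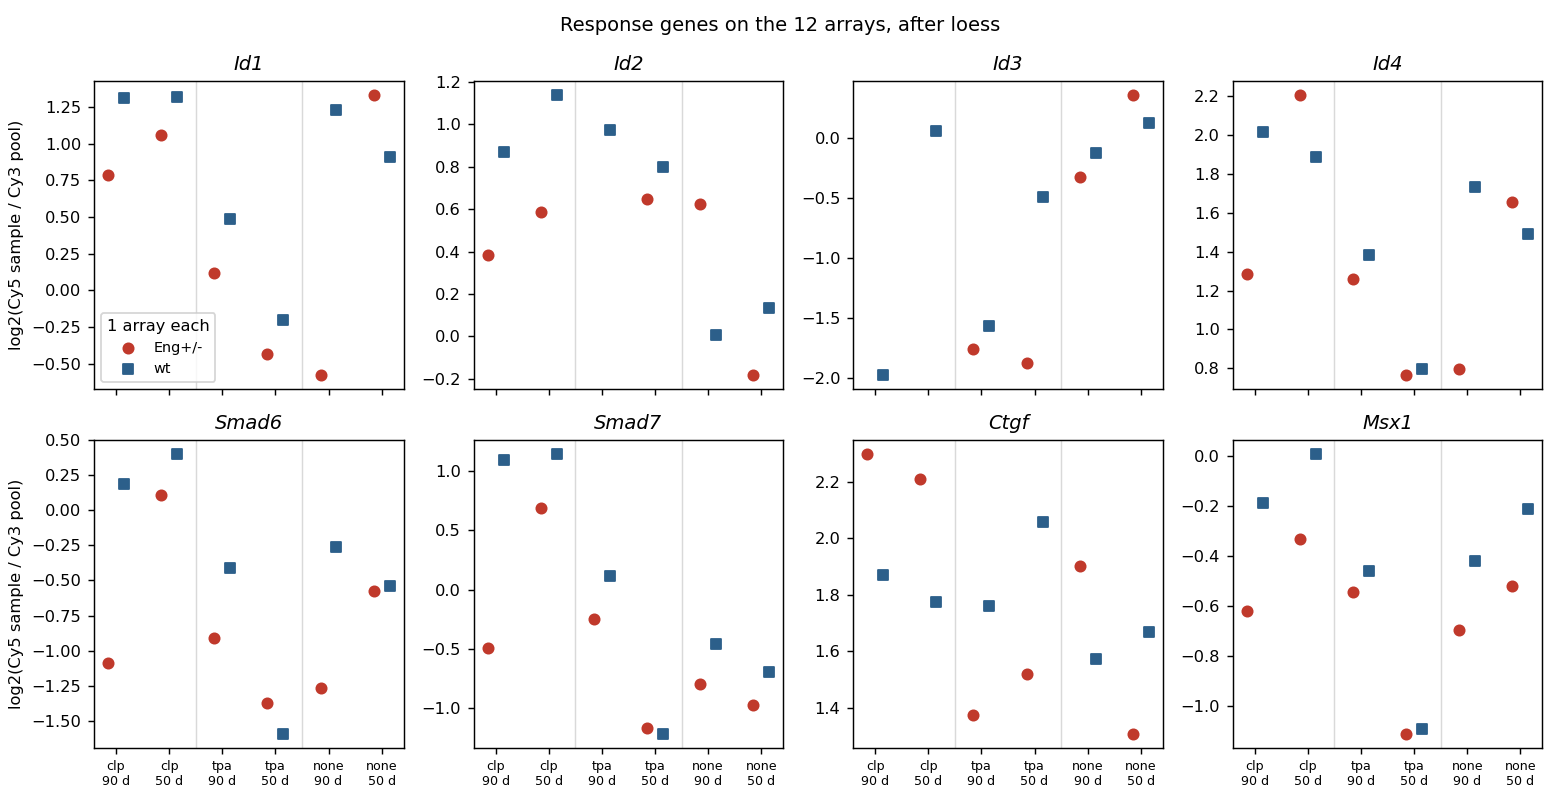
Log2 ratio of sample (Cy5) to pool (Cy3) for the 8 genes, 1 panel a gene with its own axis, over treatment and day (none stands for no named treatment). Red circles are Eng+/- and blue squares are wt, 1 array each, and flagged spots are missing. Smad6 and Smad7 are highest on wt clp 90 d and both clp 50 d arrays, and Id1, Id4, Smad6 and Msx1 are lowest on Eng+/- with no named treatment at 90 d and both tpa 50 d arrays.

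On 3 arrays (Eng+/- with no named treatment at 90 d and both tpa 50 d arrays) Id1, Id4, Smad6 and Msx1 had their 3 lowest values. That is 4 of the 6 genes measured on all 12 arrays, and 5.16% of all features measured on 12 arrays had their 3 lowest values there. On these arrays the median log2 ratio of the 26 hair genes was -5.61, -4.74 and -5.25, against -1.56 to 1.00 on the other 9. The median of 12 melanocyte genes was -1.91, -1.69 and -1.75, against -0.35 to 1.27 on the other 9. A Cy5 spot was saturated on at least 1 array for 18 of the 26 hair genes and 2 of the 12 melanocyte genes. Of the lists named below, the same held for 13 of 16 skeletal muscle, 7 of 15 fibroblast and matrix and 2 of 13 macrophage and neutrophil genes. It held for 0 endothelial, cell cycle or lymphocyte, Langerhans and mast cell genes. The part of hair and pigment cell RNA in the values of the 4 genes was not tested.

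The genotype comparison asks whether the targets of the pathway differ in samples heterozygous for the co-receptor gene. All 8 genes had a negative fitted difference, Eng+/- minus wt, and none of the 8 passed (limma, adjusted p below 0.05 over all features). None of the 25878 features passed either (0%), and 13.3% had an unadjusted p below 0.05, as had Smad7, Smad6 and Msx1 of the 8 genes. The median difference of the 8 genes was -0.31, against -0.01 over all features. It was -0.05 for 18 further BMP target genes (7 higher in Eng+/-) and -0.05 for 20 further TGF-beta target genes (8 higher). The 2 inhibitory Smads had the lowest values, Smad7 with -0.49 ± 0.20 (SE, adjusted p = 0.35) and Smad6 with -0.48 ± 0.20 (adjusted p = 0.36), each lower in Eng+/- in 5 of 6 pairs. Smad7 averaged -0.50 ± 0.67 in Eng+/- and -0.00 ± 0.97 in wt (SD, n = 6 arrays each, which differ in treatment and day). In the clp 90 d pair Smad7 was apart by -1.58 and Smad6 by -1.28, and in the tpa 50 d pair they were apart by 0.05 and 0.22. Msx1 was lower in Eng+/- in 6 of 6 pairs, by -0.02 to -0.43, with a fitted difference of -0.24 ± 0.10 (adjusted p = 0.36). Of all features with 6 pairs, 3.71% were lower in all 6 and 3.15% higher in all 6.

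Of the Id genes, Id1 differed by -0.46 ± 0.25 (adjusted p = 0.44) and was lower in Eng+/- in 5 of 6 pairs. Its pair with no named treatment at 90 d was apart by -1.81 and the other 5 pairs lay between -0.53 and 0.42. Id4 differed by -0.22 ± 0.18 (adjusted p = 0.61, lower in 4 of 6 pairs) and Id2 by -0.18 ± 0.19 (adjusted p = 0.71, lower in 4 of 5). The Id3 ratio differed by -0.39 ± 0.27 (adjusted p = 0.56, lower in 3 of 4 pairs), and from Cy5 alone by 0.04 (adjusted p = 0.95). Ctgf differed by -0.01 ± 0.17 (adjusted p = 0.98), higher in Eng+/- in both clp pairs and lower in both tpa pairs. With arrays centred on their median in place of loess, where the median of all features moves to 0.11, Id2, Id3 and Ctgf turn positive (0.07, 0.22 and 0.20). The median genotype difference was -1.65 for the hair list (25 of 26 genes lower in Eng+/-), -0.86 for the melanocyte list (12 of 12 lower) and -0.18 for the cell cycle list (15 of 15 lower). It was 0.52 for the skeletal muscle list (16 of 16 higher), 0.27 for the endothelial list (12 of 16 higher) and 0.23 for the fibroblast and matrix list (14 of 15 higher). None of these genes passed, and the part of these lists in the values above was not tested.

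Of 97 other pathway genes tested for genotype 0 passed. The smallest p in each list belonged to genes such as Nog, which encodes the BMP antagonist noggin (-1.34 ± 0.25, adjusted p = 0.31), the ligand gene Gdf5 (-0.93 ± 0.21, adjusted p = 0.31) and Lef1, a Wnt effector of the hair matrix (-0.78 ± 0.15, adjusted p = 0.31).

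**Figure D3:**
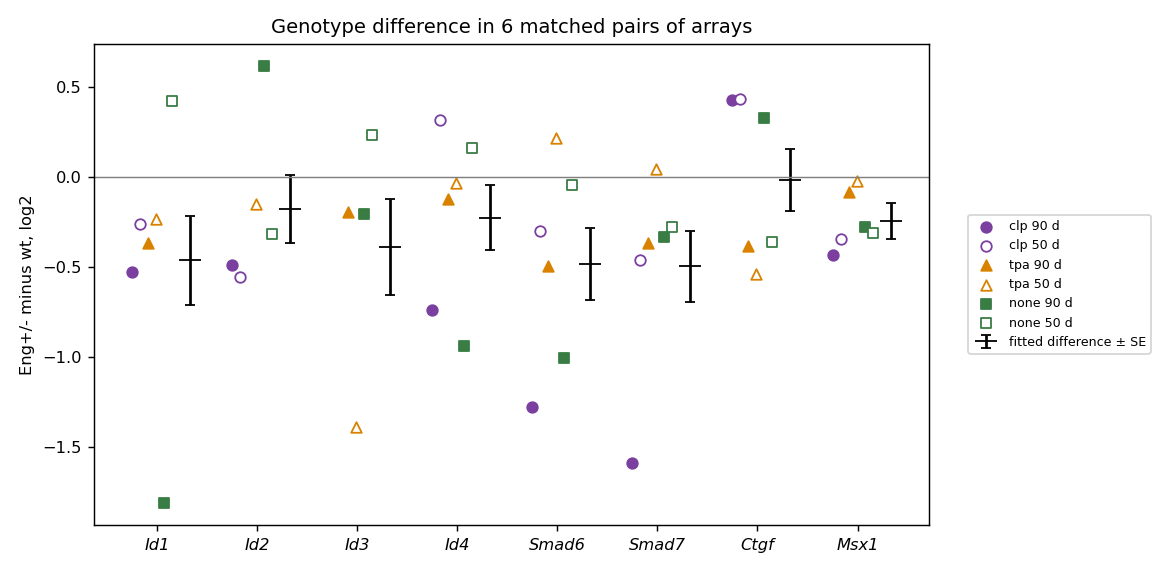
Difference in log2 ratio, Eng+/- minus wt, in each of the 6 matched pairs of arrays, 1 point a pair, for the 8 genes. Colour and shape give the treatment, filled points are 90 d and open points 50 d, and black bars are the fitted difference with its SE. Msx1 lies below 0 in 6 of 6 pairs, and the pairs of Ctgf lie on both sides.

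The series text selects genes at least 2-fold apart between genotypes, and 5 of the values of the 8 genes in the 6 pairs met this, each with the lower ratio in Eng+/-. These were Id1 and Smad6 with no named treatment at 90 d, Smad6 and Smad7 with clp at 90 d, and Id3 with tpa at 50 d. The 8 genes had values in 6 pairs each, except Id2 with 5 and Id3 with 4. Over all features and pairs the share of values at least 2-fold apart was 4.19%. By pair it was 6.93% with clp at 90 d, 1.81% with clp at 50 d, 1.5% with tpa at 90 d and 0.479% with tpa at 50 d. Without a treatment name it was 9.83% at 90 d and 4.63% at 50 d. For the value of Id3, its Cy3 signal was 2077 on the Eng+/- array and 641 on the wt array, and its Cy5 signal alone (log2) was 11.69 in Eng+/- and 11.30 in wt, the opposite direction. The pairs have no replicate array, so these counts carry no test. Whether the genotype difference changes with day or treatment was tested in a second model, which could not be fitted for Id3. Of the other 7 genes 0 passed for genotype by day (0% of features, 3.58% at an unadjusted p below 0.05). Smad6 had a log2 difference of -0.88 ± 0.29 between the genotype differences at 90 d and 50 d (unadjusted p = 0.017, adjusted p = 0.98). For genotype by treatment 0 of 7 passed (0% of features, 2.65% unadjusted), with the smallest unadjusted p for Ctgf (0.12).

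The next comparison sets clp against no named treatment, over both genotypes and days. Smad7 was higher with clp by 1.34 ± 0.24 (limma, adjusted p = 0.021), higher in 4 of 4 matched pairs by 0.30 to 1.85, and it was the only one of the 8 genes to pass. It averaged 0.61 ± 0.76 with clp and -0.73 ± 0.21 with no named treatment (SD, n = 4 arrays each, of both genotypes and days). Of all features 7.84% passed, 4.29% higher and 3.55% lower, so 1 of 8 is near that share. At an unadjusted p below 0.05 the share was 27.1% of all features, and of the 8 genes Smad7, Id3, Id2 and Smad6 had one. The median difference of the 8 genes was 0.43, against 0.01 over all features. It was 0.07 for the 18 further BMP target genes (11 higher with clp) and 0.10 for the 20 further TGF-beta target genes (12 higher). Smad6 differed by 0.56 ± 0.24 (adjusted p = 0.17), Id4 by 0.43 ± 0.22 (adjusted p = 0.24), Ctgf by 0.43 ± 0.21 (adjusted p = 0.23) and Msx1 by 0.18 ± 0.12 (adjusted p = 0.37), each higher with clp in 4 of 4 pairs. The 4 arrays with clp all lay above the 4 with no named treatment in 5.35% of features, and in none of the 7 genes with 4 arrays each. Id2 differed by 0.60 ± 0.21 (adjusted p = 0.12) and Id1 by 0.39 ± 0.30 (adjusted p = 0.43), each higher in 3 of 4 pairs. The Id3 ratio differed by -1.16 ± 0.35 (adjusted p = 0.087, 2 of 2 pairs lower), and from Cy5 alone by 0.84 (adjusted p = 0.062), the opposite sign.

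Each treatment lies on a slide of its own, so slide and treatment cannot be told apart, and p-values measure only the spread between these 12 arrays. The Smad7 call was lost without wt clp 90 d (1.01, adjusted p = 0.054), Eng+/- clp 50 d (1.33, adjusted p = 0.062) or wt clp 50 d (1.35, adjusted p = 0.084). Without Eng+/- with no named treatment at 90 d, when 17.9% of all features passed, Id2 passed (0.85, adjusted p = 0.011) and the Id1 difference was -0.01. Without wt with no named treatment at 90 d, when 6.5% of all features passed, Id1 passed (0.80, adjusted p = 0.047). Along with Smad7, the hair list had a median difference of 2.10 (3 of 26 genes passed), the melanocyte list 1.05 (4 of 12) and the cell cycle list 0.60 (3 of 15), with all passing genes higher. The fibroblast and matrix list had -0.91 (7 of 15), the macrophage and neutrophil list -0.78 (6 of 13) and the list of lymphocytes, Langerhans and mast cells -0.33 (5 of 14), with all passing genes lower. The skeletal muscle list had -0.59 and the endothelial list -0.24, with 0 of 16 passing in each. Per array, the hair list median was -1.10 to 1.00 with clp and -5.61 to 0.40 with no named treatment. Their part in the Smad7 difference was not tested.

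Of the other genes of the pathway, 97 of 102 listed were tested, and 15 of these passed for clp against no named treatment (15.5%, against 7.84% of all features), 11 higher and 4 lower. None of the 97 passed without wt clp 90 d or without wt clp 50 d, and 1 passed without Eng+/- clp 50 d. Among ligands 4 of 19 were higher: Bmp10 (1.42 ± 0.27, adjusted p = 0.023), Gdf5 (1.32 ± 0.25, adjusted p = 0.025), Bmp8a (1.00 ± 0.16, adjusted p = 0.017) and Inhba, the activin A subunit (0.51 ± 0.13, adjusted p = 0.049). Of 15 receptors and co-receptors 2 were higher, Eng by 1.5 ± 0.32 (adjusted p = 0.030) and Bmpr1a, a BMP type I receptor, by 0.77 ± 0.18 (adjusted p = 0.037). The Eng call was lost in 8 of the 12 fits without 1 array, over which its difference was 1.25 to 1.75. Of the 5 signal-transducing Smads 0 passed. Among extracellular antagonists Nbl1 was lower (-1.11 ± 0.26, adjusted p = 0.039) and Cer1 was higher (0.47 ± 0.12, adjusted p = 0.042). Of 18 further BMP targets 3 passed. Lef1 was higher by 1.41 ± 0.19 (adjusted p = 0.015) and Foxn1, a regulator of hair shaft keratins, by 1.40 ± 0.24 (adjusted p = 0.019), while Klf2, an endothelial factor, was lower (-1.06 ± 0.27, adjusted p = 0.045). Of 20 further TGF-beta targets Skil, which encodes the Smad repressor SnoN, was higher by 1.02 ± 0.20 (adjusted p = 0.025) and Cdkn2b, a cyclin-dependent kinase inhibitor, by 0.77 ± 0.16 (adjusted p = 0.029), and Fn1, fibronectin, was lower (-1.24 ± 0.26, adjusted p = 0.029). Of 8 partners of Id proteins 0 passed.

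The comparison of tpa with no named treatment shares the arrays with no named treatment with the comparison above. None of the 8 genes passed, against 0.371% of all features (0.0696% higher and 0.301% lower), and 26.2% had an unadjusted p below 0.05. The largest difference was that of the Id3 ratio, -1.43 ± 0.27 (adjusted p = 0.063), lower with tpa in 4 of 4 pairs by -0.61 to -2.24. From Cy5 alone Id3 differed by -0.30 (adjusted p = 0.49). Id1 differed by -0.73 ± 0.30 (adjusted p = 0.17, lower in 3 of 4 pairs) and Msx1 by -0.34 ± 0.12 (adjusted p = 0.13, lower in 3 of 4). Id2 differed by 0.66 ± 0.24 (adjusted p = 0.14) and was higher in 3 of 3 pairs. In 4.67% of features all 4 tpa arrays lay above all 4 with no named treatment, and in 6.63% below, as for the Id3 ratio. Smad6 differed by -0.41 ± 0.24 (adjusted p = 0.30), Id4 by -0.37 ± 0.22 (adjusted p = 0.31), Smad7 by 0.10 ± 0.24 (adjusted p = 0.80) and Ctgf by 0.07 ± 0.21 (adjusted p = 0.86). Without Eng+/- with no named treatment at 90 d, 20% of all features passed (5173), and among them Id1 (-1.14, adjusted p = 0.0081), Id2 (0.86, adjusted p = 0.014) and the Id3 ratio (-1.37, adjusted p = 0.028), for which no value from Cy5 alone was computed in that fit. With median centring in place of loess, where the median of all features moves to 0.33, Id1, Id4, Smad6 and Msx1 turn positive. Of the 97 other pathway genes 0 passed, and the smallest p included those of Nog (-1.44 ± 0.31, adjusted p = 0.066), the type I receptor gene Acvr1 (-0.82 ± 0.22, adjusted p = 0.084) and the collagen gene Col1a1 (-1.27 ± 0.36, adjusted p = 0.092). The hair list median differed by -1.05 and the macrophage and neutrophil list by 0.39, and their part was not tested.

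Set against tpa, clp had higher values of 3 of the 8 genes: Smad7 by 1.24 ± 0.24 (adjusted p = 0.020), Smad6 by 0.97 ± 0.24 (adjusted p = 0.042) and Msx1 by 0.52 ± 0.12 (adjusted p = 0.034). Of all features 8.13% passed, 3.58% higher and 4.56% lower, and 24.7% had an unadjusted p below 0.05. Smad7 averaged 0.61 ± 0.76 with clp and -0.63 ± 0.67 with tpa (SD, n = 4 arrays each), Smad6 -0.10 ± 0.67 and -1.07 ± 0.52, and Msx1 -0.28 ± 0.26 and -0.80 ± 0.35, in that order of treatments. Each of the 3 was higher with clp in 3 of 4 matched pairs, the exception being the Eng+/- 90 d pair, with -0.25 for Smad7, -0.18 for Smad6 and -0.08 for Msx1. The differences were greatest in the wt 50 d pair, with 2.36 for Smad7, 1.99 for Smad6 and 1.10 for Msx1. Id1 was higher with clp in 4 of 4 pairs by 0.66 to 1.52 and its fitted difference of 1.12 ± 0.30 did not pass (adjusted p = 0.053). Of all features 8.16% had all 4 clp arrays above all 4 tpa arrays. Id4 was also higher in 4 of 4 pairs (0.80 ± 0.22, adjusted p = 0.059). Ctgf differed by 0.36 ± 0.21 (adjusted p = 0.32), Id2 by -0.06 ± 0.24 (adjusted p = 0.90) and the Id3 ratio by 0.27 ± 0.35 (adjusted p = 0.68). For Id3, clp minus tpa from Cy5 alone was 1.14 (adjusted p = 0.043), past the threshold. That value lacks Eng+/- clp 90 d, and 9.37% of all features passed from Cy5 alone.

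The calls with clp over tpa rest on single arrays. For Msx1, clp minus tpa did not pass without any 1 of the 8 clp and tpa arrays (0.45 to 0.59, adjusted p = 0.056 to 0.19). Smad6 did not pass without wt clp 90 d, either clp 50 d array, either tpa 90 d array or wt tpa 50 d (0.73 to 1.03, adjusted p = 0.093 to 0.21). Smad7 did not pass without either clp 50 d array, either tpa 90 d array or wt tpa 50 d (1.07 to 1.27, adjusted p = 0.059 to 0.12). With 1 of the 2 arrays at 90 d without a treatment name left out, whichever it was, Id1 (1.12, adjusted p = 0.0065) and Id4 (0.80, adjusted p = 0.025) passed, and so did Id1 without 1 of the 2 at 50 d (1.12, adjusted p = 0.040). In these 4 fits 9.22 to 11.8% of all features passed. With median centring in place of loess none of the 3 passed (Smad7 1.11, adjusted p = 0.22; Smad6 0.91, adjusted p = 0.24; Msx1 0.58, adjusted p = 0.26), and with the authors' processed signals Smad6 and Msx1 did not. Smad6 did not pass without the trend in eBayes (0.97, adjusted p = 0.057), nor Msx1 from Cy5 alone (0.81, adjusted p = 0.061). In the same comparison the hair list had a median difference of 3.33, the melanocyte list 1.61 and the macrophage and neutrophil list -1.34. The hair list median by array was -1.10 to 1.00 with clp and -5.25 to 0.14 with tpa, and its part in the 3 calls was not tested.

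**Figure D4:**
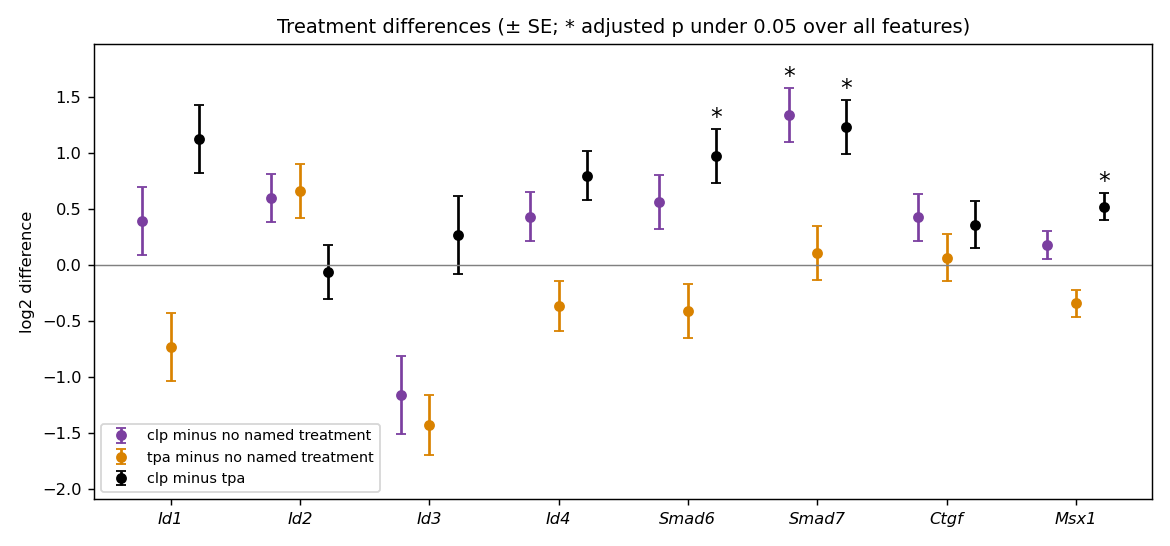
Fitted log2 differences of the 8 genes (points, with SE bars) for clp minus no named treatment, tpa minus no named treatment and clp minus tpa. The 3 comparisons share arrays. Stars mark adjusted p below 0.05 over all features, which Smad7 reaches in 2 comparisons and Smad6 and Msx1 in 1. The Id3 values are ratios to an unsteady pool signal.

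Of the 97 other pathway genes 17 passed for clp against tpa (17.5%, against 8.13% of all features), 14 higher and 3 lower. Without wt tpa 50 d 2 of the 97 passed, without wt clp 90 d or Eng+/- clp 50 d 3, and without either tpa 90 d array 4 or 5. Of the 19 ligands 6 were higher, led by Gdf5 (1.32 ± 0.25, adjusted p = 0.019), Bmp10 (1.15 ± 0.27, adjusted p = 0.034) and the procollagen protease gene Bmp1 (1.06 ± 0.25, adjusted p = 0.035). Bmp8a, Bmp2 and Inhba were higher by 0.80, 0.71 and 0.53 (adjusted p = 0.021, 0.028 and 0.043). Of the 18 further BMP targets Foxn1 (1.37 ± 0.24, adjusted p = 0.014), Lef1 (1.36 ± 0.19, adjusted p = 0.0076), Dlx3, a homeobox gene of hair differentiation (1.03 ± 0.25, adjusted p = 0.039), and Hes1, also counted as a partner of Id proteins (0.74 ± 0.18, adjusted p = 0.037), were higher, and Klf2 was lower (-1.15 ± 0.27, adjusted p = 0.034). Of the 20 further TGF-beta targets Tmeff1 (1.00 ± 0.26, adjusted p = 0.048), Skil (0.90 ± 0.20, adjusted p = 0.027) and Cdkn2b (0.77 ± 0.16, adjusted p = 0.025) were higher. Among extracellular antagonists Cer1 was higher (0.51 ± 0.12, adjusted p = 0.030). Of 15 receptors Tgfbr2, the TGF-beta type II receptor, was lower (-1.23 ± 0.18, adjusted p = 0.0081). None of the 5 signal-transducing Smads passed.

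The comparison of 90 d with 50 d was made within each treatment, from 2 pairs of arrays each. None of the 8 genes and none of all features passed with clp, with tpa or with no named treatment (0% each, with 12.6%, 5.83% and 5.57% at an unadjusted p below 0.05). With tpa 5 genes were higher at 90 d in 2 of 2 pairs: Smad7 (1.13 ± 0.34, adjusted p = 0.56), Smad6 (0.82 ± 0.34, adjusted p = 0.81), Id1 (0.62 ± 0.43, adjusted p = 1.00), Msx1 (0.60 ± 0.17, adjusted p = 0.55) and Id4 (0.54 ± 0.31, adjusted p = 0.96). With clp the inhibitory Smads were lower at 90 d in 2 of 2 pairs, Smad6 by -0.71 ± 0.34 (adjusted p = 0.43) and Smad7 by -0.62 ± 0.34 (adjusted p = 0.48). The Eng+/- pair gave -1.20 for Smad6 and -1.18 for Smad7, and the wt pair -0.22 and -0.06. The Id3 ratio with clp differed by -2.04 ± 0.53 (adjusted p = 0.30) from the wt pair alone. The fit of Cy5 alone, which also holds Eng+/- clp 50 d, gave -0.18 (adjusted p = 1.00). In the wt pair, Cy5 alone was 12.73 (log2) at 90 d and 12.55 at 50 d, the opposite direction to the ratio. With tpa the Id3 ratio differed by -0.48 and Cy5 alone by 0.42, and with no named treatment by -0.46 and -0.42. With no named treatment the greatest difference was that of Id1 (-0.79 ± 0.43, adjusted p = 0.84), from -1.91 in the Eng+/- pair and 0.32 in the wt pair. A test of whether the day difference depends on treatment gave unadjusted p of 0.012 for Msx1, 0.017 for Smad7 and 0.031 for Smad6, and 0 of 8 genes passed (adjusted p = 0.29, 0.30 and 0.33). That test was passed by 0% of features, with 13.7% at an unadjusted p below 0.05. The hair list median difference between days was 4.25 with tpa, -1.15 with clp and -1.67 with no named treatment, and its part in these values was not tested. None of the 97 other pathway genes passed in the 3 day comparisons.

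**Figure D5:**
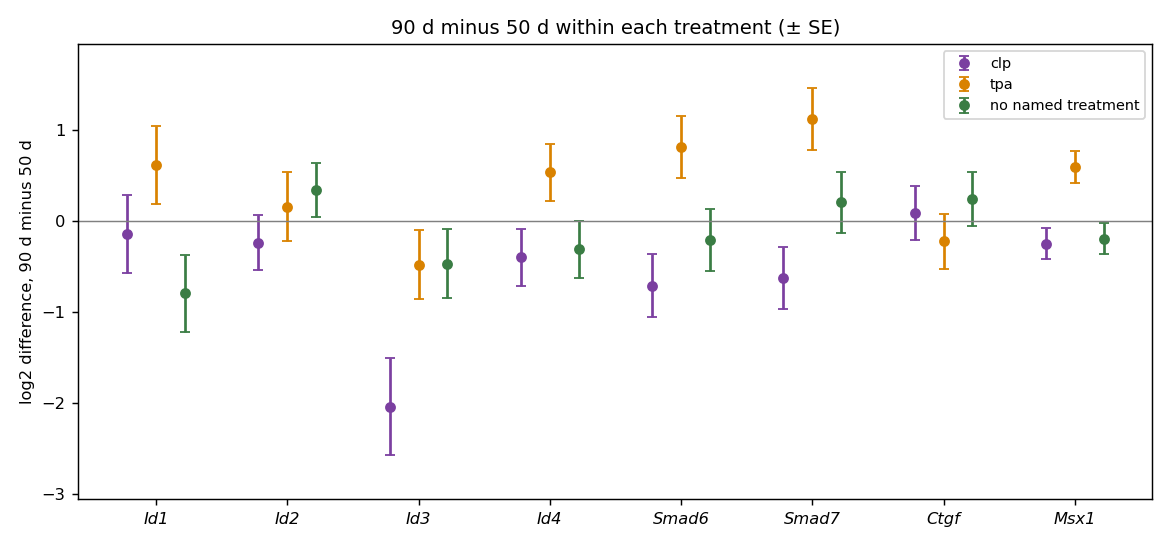
Fitted log2 differences, 90 d minus 50 d, of the 8 genes (points, with SE bars) with clp, with tpa and with no named treatment. Smad6, Smad7 and Msx1 lie above 0 with tpa and below 0 with clp, and no difference passed.

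Among 14548 named genes measured on all 12 arrays, the pattern of Smad7 was most like that of Tspan6 (r = 0.99), Slc39a6 (0.98) and Lpar6 (0.98). Its r with Eng was 0.91, which put Eng at rank 248. Smad6 was most like Serinc5, Endou and the BMP target Dlx3 (0.98 each), with r = 0.79 to Eng (rank 979). The r with Eng of the other genes described here was -0.23 (Id3) to 0.69 (Msx1). Id1 was most like Panx1, Ankrd13b and Neo1 (r = 0.987, 0.986 and 0.985), and Id4 most like Ppil1, Ephb1 and Med19 (0.98, 0.97 and 0.97). Msx1 was most like Tcf7 (0.97), Bmp4 (0.965), a BMP ligand gene, and Fads2 (0.95). Id2 over 11 arrays was most like Snrpg, Nsa2 and Elob (0.97 each), and Id3 over 10 most like Ddx18, Ctnnbl1 and Bard1 (0.941, 0.933 and 0.915). Every r of Id3, also that with Eng, rests on its ratio to the unsteady pool signal, and none was computed from Cy5 alone. Ctgf had the least close matches, Pcp4 (0.86), Syt3 (0.855) and Serpinb11 (0.85). These r describe arrays that share slides, the pool and tissue content, and they carry no test.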

How the data were processed

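Per the labels and file headers, RNA of 12 samples was hybridised in Cy5 against a pool of all conditions in Cy3 (Agilent design 026655, probe build mm9). The deposited scanner files hold intensity values of both channels, extracted by the authors with Feature Extraction 10.7.3.1 per the file headers (10.0 per the submitters' processing notes, 10.1 in the series text). The deposited value table holds log10 ratios by the authors, equal to those of the scanner files (largest difference 0).

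Median intensities were corrected (normexp, offset 50) and loess-normalized within each array in limma 3.58.1 (R 4.3.3), without normalization between arrays. Control spots had weight 0, and a spot with an outlier flag was set missing on its array. Features had Cy5 above background on at least 2 arrays, with the brightest probe for each gene. One limma model held genotype and 6 conditions (5 residual degrees of freedom, eBayes with trend). A second with all interactions of factor pairs had 2. Two-sided p-values were adjusted by Benjamini-Hochberg over all features, with a threshold of 0.05. With 1 array per combination, the spread is what these terms leave unexplained. The model was run on simulated data with independent noise and no slide or tissue effects, which cannot test whether slide and treatment are told apart. The 8 genes, the lists and the tests were chosen with earlier results of these data known. The text names the 8 genes and Eng always. Of each pathway list it names up to 8 genes per comparison that passed, or some of the 2 with the smallest p where none passed. One gene that the rule names is not reported here, and the counts over the lists include it.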

Additional observations from a re-analysis of the deposited data

How the results depend on the processing

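The tests of the 8 genes and Eng, the counts over all features and over the pathway lists (the last added after seeing the data) and the 2-fold count were recomputed under other normalizations, filters, probe rules and sample sets, with outlier-flagged spots kept (chosen after seeing the data), and without each array in turn. With median centring in place of loess, 0 of the 8 genes passed for clp against tpa, against 6.47% of all features. For genotype by treatment 5 passed, as did 42.1% of all features. In the genotype pairs 13 values were at least 2-fold apart, as were 16.7% of all such values. The median of all features then moved to 0.23 for clp and 0.33 for tpa against no named treatment, 0.11 for genotype, 0.23 for day with no named treatment and -0.11 for day with tpa. These log2 differences changed sign there: for genotype Id2 (0.0716), Id3 (0.22) and Ctgf (0.20); for tpa against no named treatment Id1 (0.0127), Id4 (0.25), Smad6 (0.14) and Msx1 (0.18); for day with no named treatment Id3 (0.14), Id4 (0.28) and Smad6 (0.34), and with clp Id1 (0.0324). Of the features that passed, 88.3% were then higher for clp and 82.5% for tpa against no named treatment, in place of 54.7% and 18.8%. From Cy5 alone, Id3 changed sign for genotype (0.0432), clp against no named treatment (0.84) and day with tpa (0.42), as did Ctgf for tpa against no named treatment (-0.0906). With the authors' processed signals 1 gene passed for clp against tpa, as did 6.38% of all features. With flagged spots kept, Id2 was at 0.00479 for clp against tpa. Without wt clp 90 d and wt 50 d with no named treatment, whose reference channel stood apart in earlier results of these data, 0 genes passed for clp against no named treatment and 0 for clp against tpa, and 3 pair values were 2-fold apart. Without both tpa 50 d arrays Ctgf was at 0.09 for genotype, and the tpa comparisons and interactions gave no value. The cause of these changes was not tested.

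Without 1 array at a time, 0 to 2 of the 8 genes passed for clp and 0 to 3 for tpa against no named treatment, 0 to 5 passed for clp against tpa, and 3 to 5 pair values were 2-fold apart. The other comparisons stayed at 0 of those of the 8 genes that could be fitted. For genotype by day Id3 had no value, and Id2 had one in 1 of the 12 fits. Counted over all features, genotype also stayed at 0, while genotype by day gave 77 to 360. The day comparisons and the other interactions stayed at 0 features in some of these fits and not in others. The features that passed numbered 1 (without wt clp 50 d) to 4627 (without Eng+/- with no named treatment at 90 d) for clp against no named treatment, 0 (without wt tpa 50 d) to 5173 (again without Eng+/- with no named treatment at 90 d) for tpa, and 201 (without wt tpa 50 d) to 3036 (without wt with no named treatment at 90 d) for clp against tpa, against 2028, 96 and 2105 with all arrays. For all features, clp minus no named treatment gave 4192 with processed signals and 6295 from Cy5 alone. Without both tpa 50 d arrays it gave 948. For all features, tpa minus no named treatment gave 1030 with median centring, 441 from Cy5 alone, 9 with both channels above background, 4 without the trend and 0 with processed signals. Without both wt arrays named above, 8, 10 and 337 features passed in the 3 treatment comparisons, and 6, 4 and 5 for day with no named treatment, day with clp and day by treatment. Of comparisons with 0 features, median centring gave 212 for genotype, 246 for day with tpa, 320 for day by treatment, 151 for genotype by day and 10858 for genotype by treatment. Genotype by day had 34 from Cy5 alone and 32 with both channels above background. Log2 differences that changed sign without 1 array ranged as follows: Ctgf -0.10 to 0.09 for genotype, -0.0916 to 0.22 for tpa against no named treatment, -0.18 to 0.36 for day with clp and -0.54 to 0.0928 with tpa; Id1 -0.0106 to 0.80 for clp against no named treatment; Smad7 -0.0583 to 0.27 for tpa against no named treatment and -1.27 to 0.0335 for day with clp; Id2 -0.20 to 0.0338 for clp against tpa and -0.47 to 0.00107 for day with clp; Id3 -1.14 to 0.19 for day with tpa. For day with no named treatment they were Id1 -1.60 to 0.0168, Id2 -0.16 to 0.84, Id4 -0.74 to 0.12, Smad6 -0.52 to 0.10 and Eng -0.18 to 0.41. For genotype by day, Eng ranged from -1.21 to 0.15. Pairs were matched by treatment and day, which the model holds as terms, and no block by replicate number was possible because the labels carry none. Over the 97 pathway genes, counts without 1 array ranged from 0 to 26 for clp against no named treatment, 0 to 23 for tpa and 2 to 25 for clp against tpa. With 1 array per combination and 5 residual degrees of freedom, the number of arrays limits the precision.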
